A study of Homo sapiens with 6 samples.

Results

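The genes described here encode the proteins of the mitochondrial ribosome. They were taken by symbol, as every gene that the array annotation names MRPL or MRPS followed by a digit, and where a gene had several probe sets the brightest stood for it. The rule found 74 of the 18417 genes measured, 48 of them named for the large subunit (MRPL) and 26 for the small subunit (MRPS). One of the 26, MRPS31P5, is a pseudogene. The rule itself uses symbols and brightness, not the difference between groups.

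RNA was measured on 6 whole-transcript arrays from WM164, a human melanoma cell line with mutant BRAF that was grown out of a lymph node metastasis. IDTC, the induced drug tolerant cells, were 3 samples kept in 500 nM PLX4032 for 16 days. PLX4032 is vemurafenib, an inhibitor of mutant BRAF. Parent cells were 3 samples of the same line given DMSO, and the labels do not give the length of that treatment. Cells of each group were kept in triplicate and each RNA was isolated on its own, but the series does not say whether the triplicates were separate experiments, and any p-value therefore reflects only variation among these arrays, which may be partly technical. All values below are log2 expression as deposited, differences are IDTC minus Parent, and a gene was called, and is said to have risen or fallen, when its adjusted p in the limma fit (Benjamini-Hochberg, all genes tested) was under 0.05.

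Over all genes the correlation between arrays was 0.995 to 0.998 within a group and 0.953 to 0.957 between groups. The labelled cell type was checked on 7 melanocyte lineage markers, whose mean levels ran from 6.13 to 12.96. Of these 5 rose in the drug tolerant cells and 1 fell, with log2 fold changes of 2.89 for TYRP1 and 1.45 for MLANA. The 8 fibroblast markers had mean levels of 3.63 to 7.66. LUM (log2 fold change -0.89) and PDGFRA (-0.28) were lower, FAP (0.26) was higher and 5 were not called. The 7 immune markers had levels of 3.74 to 6.25, with LYZ (-3.03) and FCER1G (-2.13) lower and MS4A1 (0.37) higher. The calls of FAP and MS4A1 were lost when single arrays were left out. The part of these shifts in the results below was not tested, and in bulk RNA fewer cells with a transcript and less of it per cell cannot be told apart.

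The mitochondrial ribosome is a separate ribosome inside mitochondria. It makes the few proteins encoded by mitochondrial DNA, which are core subunits of the respiratory chain and of ATP synthase. Its RNA comes from mitochondrial DNA, but all of its proteins are encoded in the nucleus, made in the cytosol and imported. Many are relatives of bacterial ribosomal proteins and the rest arose in the mitochondrial lineage. The small subunit reads the mRNA, and the large subunit joins amino acids and passes the new chain out through a tunnel at the inner membrane.

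For each subunit, the 250 bases before the transcription start are shown for a pair of members. These had the lowest log2 fold change among those that the sequence tables allowed. MRPL44, the only gene with an MRPL symbol that rose, was added after its values had been seen. Sequences are from RefSeq, build GRCh38.p14, written 5′ to 3′ along the gene, with matches to the motifs described further on in capitals. MRPL39 lies at chr21:25607482-25607731 on the minus strand and MRPL50 at chr9:101398619-101398868 on the minus strand. MRPS12 lies at chr19:38930694-38930943 on the plus strand and MRPS23 at chr17:57850045-57850294 on the minus strand. MRPL44 lies at chr2:223957213-223957462 on the plus strand.
MRPL39: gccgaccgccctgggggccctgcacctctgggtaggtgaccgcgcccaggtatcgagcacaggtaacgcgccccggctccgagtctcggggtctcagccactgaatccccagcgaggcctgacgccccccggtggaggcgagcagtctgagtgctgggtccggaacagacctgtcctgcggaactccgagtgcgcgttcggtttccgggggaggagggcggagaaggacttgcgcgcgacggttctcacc
MRPL50: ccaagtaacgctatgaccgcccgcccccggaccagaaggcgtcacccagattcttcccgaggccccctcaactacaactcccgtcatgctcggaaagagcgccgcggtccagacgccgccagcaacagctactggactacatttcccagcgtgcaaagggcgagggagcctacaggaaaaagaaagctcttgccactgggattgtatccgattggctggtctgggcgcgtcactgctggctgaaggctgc
MRPS12: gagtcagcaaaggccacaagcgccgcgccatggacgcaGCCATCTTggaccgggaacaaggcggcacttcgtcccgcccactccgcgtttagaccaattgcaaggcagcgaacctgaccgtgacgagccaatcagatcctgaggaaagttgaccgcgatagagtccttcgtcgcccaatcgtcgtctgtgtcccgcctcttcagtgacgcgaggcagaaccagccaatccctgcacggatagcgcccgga
MRPS23: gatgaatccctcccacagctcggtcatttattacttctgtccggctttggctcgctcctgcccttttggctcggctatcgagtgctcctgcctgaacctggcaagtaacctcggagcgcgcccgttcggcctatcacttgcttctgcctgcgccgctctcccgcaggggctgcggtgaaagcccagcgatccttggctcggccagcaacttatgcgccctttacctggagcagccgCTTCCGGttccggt
MRPL44: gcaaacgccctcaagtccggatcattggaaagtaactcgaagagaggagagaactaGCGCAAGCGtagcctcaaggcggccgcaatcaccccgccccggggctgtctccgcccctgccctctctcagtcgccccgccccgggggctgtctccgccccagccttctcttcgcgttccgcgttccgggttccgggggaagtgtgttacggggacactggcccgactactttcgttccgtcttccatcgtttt

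In the drug tolerant cells the genes of the mitochondrial ribosome were lower across both subunits. Of the 74 genes, 56 fell (75.7%), 4 rose (5.41%) and 14 were not called. Over all genes measured, 24.9% were called lower and 21.7% were called higher. The median log2 fold change of the 74 was -0.46, with quartiles of -0.84 and -0.29, beside a median of -0.02 over all genes. The sign was negative for 65 of them. Most of these genes are bright, and when the dimmest 40% of genes were left out of the fit 56 of the 70 remaining mitoribosomal genes were called lower, beside 39.6% of the 11050 genes then tested.

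The changes were mostly moderate. The 56 called lower fell by 1.14-fold to 3.04-fold, with a median of 1.55-fold. Those lower by 2-fold or more numbered 9, beside 5.4% of all genes. Another 24 genes had log2 fold changes between -1 and -0.5, and 32 lay between -0.5 and 0. Only MRPL44 moved by more than 0.5 in the upward direction.

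The arrays of the groups stood apart for most of these genes. For 61 of the 74 every IDTC array lay below every Parent array, beside 28.7% of all genes. For 7 every IDTC array lay above, beside 25.4% of all genes, and for 6 the groups overlapped. The SD within a group was 0.009 to 0.255 in IDTC arrays, with a median of 0.085, and 0.005 to 0.44 in Parent arrays, with a median of 0.074.

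**Figure D1:**
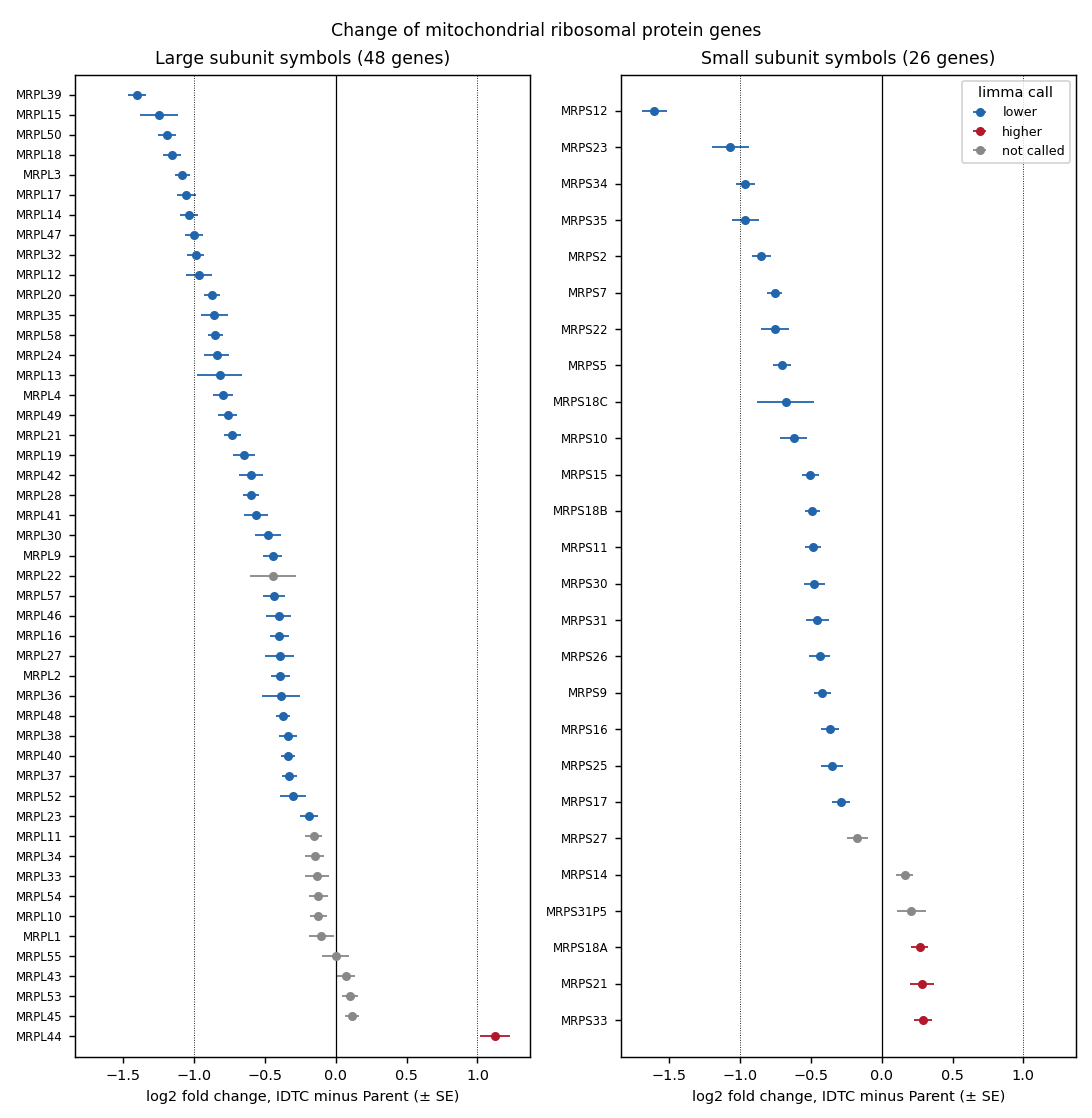
The log2 fold change (IDTC minus Parent, with its standard error) of each of the 74 genes, large subunit and small subunit in separate panels, ordered from the lowest at the top, with colour giving the call and dotted lines at 2-fold. All but 9 of the values lie below 0, and MRPL44 stands alone on the right at 1.12.

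Within the large subunit 36 of 48 genes fell, 1 rose and 11 were not called, and the median log2 fold change was -0.45. Within the small subunit 20 of 26 fell, 3 rose and 3 were not called, and the median was -0.48. Without the pseudogene MRPS31P5 the small subunit held 20 lower of 25, with a median of -0.48. The large subunit held 7 of the 9 genes lower by 2-fold or more and the small subunit 2.

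MRPS12 was the lowest of all. It is the relative of bacterial S12, which sits at the decoding centre of the small subunit. Its level was 6.26, 6.24 and 6.08 on the IDTC arrays, against 7.96, 7.70 and 7.74 on the Parent arrays. The groups were far apart relative to their spread, and the log2 fold change was -1.60 ± 0.09 (SE, n = 3 each), a 3.04-fold decrease (limma adjusted p = 6.256e-06). MRPS23, a small-subunit protein with no bacterial relative, had 7.30, 7.59 and 7.12 in IDTC, against 8.55, 8.27 and 8.39 in Parent. Here the arrays of each group were more spread, with SDs of 0.239 in IDTC and 0.142 in Parent, and the log2 fold change was -1.07 ± 0.13 (limma adjusted p = 0.0003266).

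A second tier of small-subunit genes fell by somewhat less than 2-fold. MRPS34, a mitochondrion-specific protein whose inherited loss causes Leigh syndrome, had levels of 8.65, 8.74 and 8.85 in IDTC, against 9.68, 9.70 and 9.74 in Parent, a fold of 1.95. MRPS35, also without a bacterial relative, had 8.29, 8.22 and 7.96 in IDTC, against 9.20, 9.08 and 9.07 in Parent, again 1.95-fold. For both genes every IDTC array lay well under every Parent array. MRPS2, the relative of bacterial S2, averaged 8.94 ± 0.07 in IDTC and 9.79 ± 0.09 in Parent (SD, n = 3 each). MRPS7, the relative of the protein S7 that organises the head of the bacterial small subunit, averaged 7.84 ± 0.04 in IDTC and 8.59 ± 0.04 in Parent. MRPS22, a mitochondrion-specific protein, averaged 6.47 ± 0.02 in IDTC and 7.23 ± 0.20 in Parent, the wider Parent spread coming from 1 array at 7.46 beside 7.12 and 7.10.

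MRPL39 led the large subunit. Its protein has no bacterial ribosomal relative and lies near the tunnel exit. Its level was 8.63, 8.71 and 8.57 in IDTC, against 9.98, 10.09 and 10.04 in Parent, and the log2 fold change was -1.40 ± 0.06 (limma adjusted p = 2.397e-06). MRPL50, another mitochondrion-specific protein, had 9.03, 8.97 and 8.90 in IDTC, against 10.25, 10.12 and 10.12 in Parent, 2.29-fold lower. MRPL15, the relative of bacterial L15, had 8.04, 7.69 and 7.54 in IDTC, against 9.14, 8.90 and 8.96 in Parent. It had the widest IDTC spread of the 74, with an SD of 0.255, and its groups were still clearly apart.

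The remaining large-subunit genes past 2-fold have bacterial relatives. MRPL18 belongs to the family that binds 5S rRNA in bacteria, a place that a mitochondrial tRNA fills in the human mitoribosome. It had 8.79, 8.75 and 8.61 in IDTC, against 9.88, 9.86 and 9.87 in Parent, 2.23-fold lower. MRPL3, whose bacterial relative reaches toward the peptidyl transferase centre, had 9.25, 9.29 and 9.20 in IDTC, against 10.37, 10.32 and 10.30 in Parent, 2.12-fold lower. Neither gene had an IDTC array near a Parent array. MRPL17, at the tunnel exit, averaged 9.74 ± 0.04 in IDTC and 10.80 ± 0.11 in Parent. MRPL14, on the face that meets the small subunit, averaged 8.49 ± 0.03 in IDTC and 9.53 ± 0.10 in Parent, 2.05-fold lower. Just inside that 2-fold boundary stood MRPL47 at a log2 fold change of -0.999 and MRPL32 at -0.99.

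**Figure D2:**
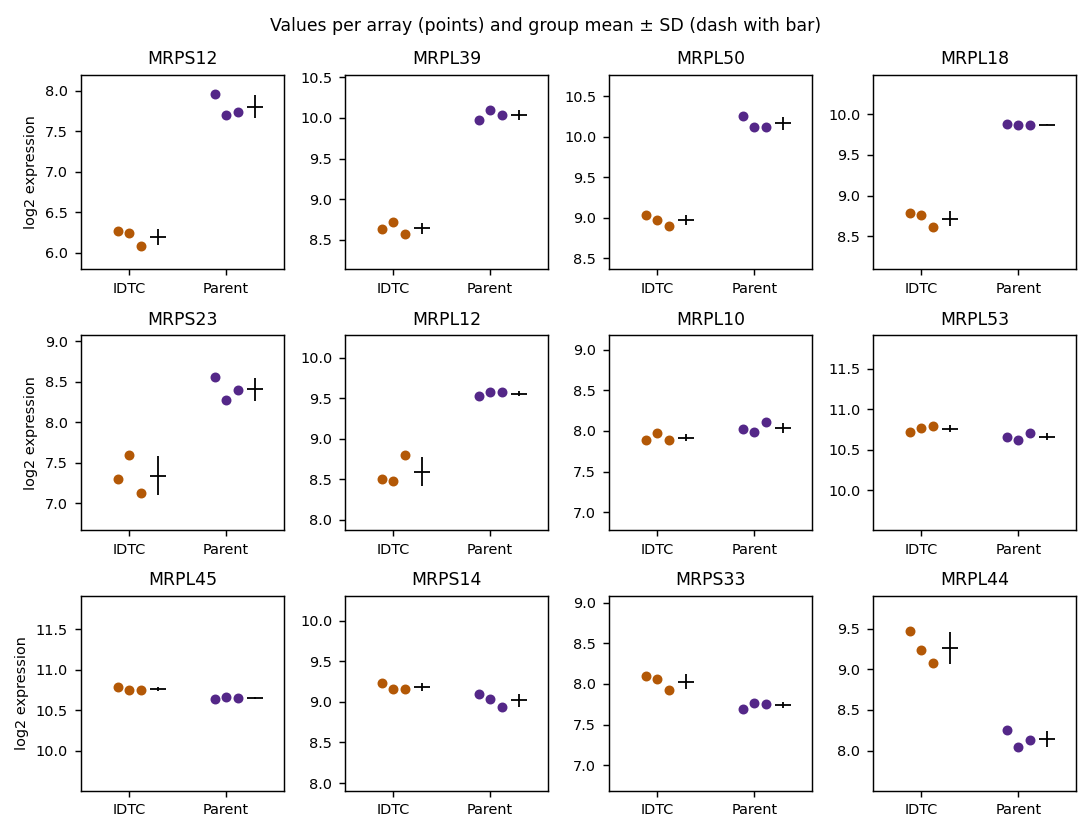
The log2 expression on each of the 6 arrays for 12 genes of the mitochondrial ribosome, IDTC arrays on the left and Parent arrays on the right of each panel. MRPS12, MRPL39, MRPL50, MRPL18, MRPS23 and MRPL12 have every IDTC array well below the Parent arrays, MRPL10, MRPL53, MRPL45 and MRPS14 have groups that lie close together, and MRPS33 and MRPL44 have IDTC above.

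Only 4 genes rose. MRPL44, a large-subunit protein with an RNase III-like fold, had 9.47, 9.24 and 9.08 in IDTC, against 8.25, 8.04 and 8.14 in Parent. All 3 IDTC arrays were higher, and the log2 fold change was 1.12 ± 0.11, a 2.18-fold increase (limma adjusted p = 9.022e-05). The other 3 carry small-subunit symbols and moved much less. MRPS33, a mitochondrion-specific protein, had 8.10, 8.07 and 7.93 in IDTC, against 7.69, 7.76 and 7.75 in Parent (log2 fold change 0.29 ± 0.06, limma adjusted p = 0.006747). MRPS18A, one of 3 human relatives of bacterial S18, had 10.82, 10.78 and 10.76 in IDTC, against 10.60, 10.52 and 10.44 in Parent, a log2 fold change of 0.27 ± 0.06. MRPS21, the relative of bacterial S21, had 11.03, 10.98 and 11.08 in IDTC, against 10.90, 10.59 and 10.76 in Parent, 0.28 ± 0.08. The groups did not overlap for any of these genes, but the call of MRPS21 was lost when any one of 5 arrays was left out, with limma adjusted p up to 0.07461.

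The relatives of S18 went different ways. MRPS18B averaged 9.27 ± 0.05 in IDTC and 9.76 ± 0.03 in Parent and fell by 0.49 on the log2 scale. MRPS18C had 4.59, 4.47 and 4.35 in IDTC, against 5.62, 4.75 and 5.07 in Parent. It is among the dimmest probe sets of the list, its Parent arrays differed among themselves by more than the group means did, and its call (limma adjusted p = 0.02797) was lost without any one of 4 arrays. MRPS18A and MRPS30 are named for the small subunit but sit in the large subunit in structures of the human mitoribosome. MRPS30 had 9.02, 9.05 and 8.84 in IDTC, against 9.54, 9.39 and 9.41 in Parent, and fell by 0.47 ± 0.08.

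The 14 genes not called had folds of 1.00 to 1.36, with a median log2 fold change of -0.11. In 6 of them, MRPL10, MRPL11, MRPL22, MRPL34, MRPL54 and MRPS27, every IDTC array still lay below every Parent array. In 3, MRPL45, MRPL53 and MRPS14, every IDTC array lay above. The groups overlapped for MRPL1, MRPL33, MRPL43, MRPL55 and MRPS31P5.

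MRPL45, which ties the mitoribosome to the inner membrane, had 10.79, 10.75 and 10.76 in IDTC, against 10.64, 10.66 and 10.65 in Parent, a difference of 0.11 ± 0.05 (limma adjusted p = 0.09696). MRPS14, the relative of bacterial S14, had 9.24, 9.16 and 9.16 in IDTC, against 9.09, 9.04 and 8.94 in Parent (0.16 ± 0.06, limma adjusted p = 0.06862). Both small upward differences, and that of MRPL53, were called once the arrays had been re-centred or quantile normalized. MRPS27, a pentatricopeptide repeat protein of the small subunit, had 9.51, 9.47 and 9.36 in IDTC, against 9.73, 9.52 and 9.61 in Parent (-0.17 ± 0.07). MRPL34, the relative of bacterial L34, had 8.98, 8.98 and 8.99 in IDTC, against 9.02, 9.13 and 9.24 in Parent (-0.15 ± 0.07). The pseudogene MRPS31P5 averaged 6.42 ± 0.15 in IDTC and 6.21 ± 0.16 in Parent, whereas MRPS31 itself averaged 6.66 ± 0.08 in IDTC and 7.11 ± 0.12 in Parent and fell. Probes of such near-identical copies may share RNA, so the value of the pseudogene is uncertain.

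The members called lower by the narrowest margin were MRPL23 (limma adjusted p = 0.04796) and MRPL36 (0.04664). MRPL36, the relative of bacterial L36, had 10.17, 10.01 and 10.43 in IDTC, against 10.43, 10.54 and 10.80 in Parent. It was the only called gene whose groups touched. A second and dimmer probe set of MRPL36 had 9.52, 9.39 and 9.80 in IDTC, against 10.89, 10.96 and 10.90 in Parent, a log2 fold change of -1.34 ± 0.11 beside -0.39 for the brighter one. The calls of MRPL23, MRPL27, MRPL36, MRPL52 and MRPS18C were each lost without one or another single array, with 51 to 55 of the 74 then called lower, and the lowest count came without the array IDTC 2.

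The L7/L12 stalk of the large subunit recruits the translation factors. Of 5 genes for the stalk and its base 1 fell and 4 were not called, a share near the 24.9% of all genes called lower, and the median log2 fold change was -0.12. In the fit without the dimmest 40% of genes 2 of the 4 then tested were called lower, MRPL12 and MRPL11. MRPL12, the stalk protein itself, which is also known to bind the mitochondrial RNA polymerase, had 8.50, 8.48 and 8.80 in IDTC, against 9.52, 9.58 and 9.57 in Parent. It fell 1.95-fold, and the array IDTC 3 was nearest to Parent. MRPL10, which anchors MRPL12, had 7.89, 7.97 and 7.89 in IDTC, against 8.02, 7.99 and 8.11 in Parent, a difference of -0.12 ± 0.06 (limma adjusted p = 0.1301). MRPL11, at the stalk base, had 8.27, 8.13 and 8.19 in IDTC, against 8.30, 8.36 and 8.39 in Parent (-0.16 ± 0.06, limma adjusted p = 0.07037). For both, the groups were separated by less than their own range. MRPL53 had 10.72, 10.77 and 10.79 in IDTC and 10.62 to 10.70 in Parent, and MRPL54 had a difference of -0.12.

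All 7 genes listed here for the central protuberance were called lower, beside 24.9% of all genes. When the arrays were re-centred or quantile normalized 6 of them were called lower. The protuberance is the crest of the large subunit that holds the structural tRNA, and the list may not hold all of its genes. The median log2 fold change of these 7 genes was -0.37, within a range of -1.16 for MRPL18 to -0.30 for MRPL52. MRPL46 fell by 0.40 ± 0.09. MRPL27 had 7.91, 7.94 and 8.28 in IDTC, against 8.41, 8.47 and 8.43 in Parent, and its call was lost without any one of 4 arrays (limma adjusted p up to 0.0604). Of 8 proteins around the tunnel exit 5 fell (62.5%), MRPL44 rose and MRPL22 and MRPL45 were not called, with a median of -0.64.

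Genes with bacterial relatives and those without were both mostly lower, beside 24.9% of all genes called lower and 21.7% called higher. In the large subunit 23 of 29 with a relative fell and none rose, with a median log2 fold change of -0.65, and 13 of 18 without one fell and 1 rose, with a median of -0.36. In the small subunit 12 of 14 with a relative fell and 1 rose (median -0.50), and 7 of 9 without one fell and 1 rose (median -0.45). These groups leave out MRPL55, the pseudogene MRPS31P5, and MRPS18A and MRPS30, which belong to the large subunit in structures. Of 12 measured genes in which inherited defects cause combined oxidative phosphorylation deficiency, 10 fell (83.3%), MRPL44 rose and MRPS14 was not called. Their median was -0.80.

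The subunits moved by similar amounts on average. The mean level of the large-subunit genes was 8.55, 8.50 and 8.46 on the IDTC arrays, against 9.07, 8.99 and 9.02 on the Parent arrays, a difference of -0.52. The mean of the small-subunit genes was 8.41, 8.39 and 8.32 in IDTC, against 8.92, 8.79 and 8.82 in Parent, a difference of -0.47. On both means all IDTC arrays lay below all Parent arrays.

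The large mean minus the small mean, whose own size has no meaning between different probes, was 0.13 ± 0.01 in IDTC and 0.19 ± 0.03 in Parent (SD, n = 3 each). It therefore differed by -0.05 between the groups. With MRPS18A and MRPS30 counted in the large subunit, as in the structures, this difference was -0.007. The pseudogene bears on it as well: without MRPS31P5 the mean log2 fold change of the small-subunit genes was -0.495, beside -0.522 for the large subunit. Each change of membership was made alone, so the sign of so small a difference is not settled. No test was made of these means.

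The arrays within a group kept an order over many of the genes. IDTC 1 was the highest of the IDTC arrays for 46 of 74 genes (62.2%, beside 36.6% of all genes) and IDTC 3 the lowest for 45 (60.8%, beside 42.7%). Parent 1 was the highest of its group for 46 (62.2%, beside 38.4%) and Parent 2 the lowest for 36 (48.6%, beside 33.8%). The deviations of the genes within a group were thus shared, and the genes do not count as independent.

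**Figure D3:**
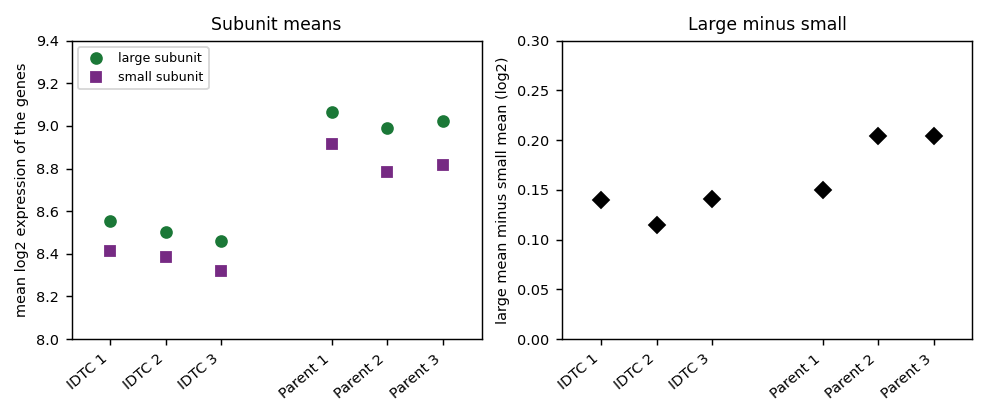
The mean log2 expression of the large-subunit and the small-subunit genes on each array, IDTC arrays left and Parent arrays right, and in the right panel the difference between these means. Large-subunit means run from 8.46 to 8.55 in IDTC and 8.99 to 9.07 in Parent, and small-subunit means from 8.32 to 8.41 in IDTC and 8.79 to 8.92 in Parent. The difference was 0.115 to 0.141 in IDTC and 0.150 to 0.205 in Parent.

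Some mitoribosomal genes have probe sets that carry several symbols and were outside the 74. Of 5 such probe sets 4 were lower when all 33297 probe sets were fitted. The share of all probe sets lower in that fit was not counted here. The one not called names MRPS24 only within the symbol URGCP-MRPS24, beside URGCP (-0.21 ± 0.07, limma adjusted p = 0.069). The one annotated to MRPS6 and SLC5A3 had 9.96, 10.05 and 9.88 in IDTC, against 11.45, 11.42 and 11.47 in Parent (-1.48 ± 0.06). Which of those genes gave that signal cannot be told from the array. Among the proteins of the ribosome that carry other symbols, 2 of 4 fell. DAP3, a GTP-binding protein of the small subunit, had 8.26, 8.14 and 8.15 in IDTC, against 8.89, 8.89 and 8.88 in Parent (-0.71 ± 0.06, limma adjusted p = 3.642e-05). PTCD3 fell by 0.30 ± 0.05, and GADD45GIP1 (-0.21) and CHCHD1 (-0.18) were not called.

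The proteins of the cytosolic ribosome were counted in the same way. Of 67 genes taken by RPL or RPS symbols 7 fell (10.4%), 25 rose (37.3%) and 35 were not called, with a median log2 fold change of 0.12. Over all genes 24.9% were called lower and 21.7% higher. After re-centring 34 of the 67 were called higher, beside 4846 of all 18417 genes. The symbols take in paralogues, and RPL22L1, RPL26L1, RPL7L1 and RPL39L were among the 7 that fell. Genes under other symbols were left out. The lowest were RPL22L1 (-1.42) and RPL26L1 (-1.17), paralogues of standard proteins of that ribosome, and the highest were RPL13 (1.12) and RPL22 (0.94). The difference between the 2 kinds of ribosome was not tested as such. Genes of the cytosolic ribosome have many near-identical pseudogenes, so single values are uncertain.

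Genes that build and serve the mitochondrial ribosome were mostly lower too. Of 28 genes for its assembly and rRNA modification 18 fell (64.3%), 6 rose (21.4%) and 4 were not called, with a median of -0.33. Over all genes 24.9% were called lower and 21.7% higher, so the share that rose was like that of all genes. TFB1M, the enzyme that dimethylates the small-subunit rRNA, had 6.34, 6.23 and 5.96 in IDTC, against 8.52, 8.33 and 8.33 in Parent, and fell 4.64-fold (limma adjusted p = 3.503e-06). That decrease was larger than that of any of the 74 ribosomal protein genes. FASTKD2, which binds the large-subunit rRNA, had a log2 fold change of -0.98 ± 0.11, and MPV17L2, an assembly factor of the inner membrane, one of -0.84 ± 0.06. The 6 that rose were NOA1 (0.55 ± 0.06), TRMT61B, METTL17, MTERF4, YBEY and NGRN (0.27).

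Of 15 translation factors and partners of mitochondrial mRNA 11 fell (73.3%) and 2 rose (13.3%), with a median of -0.43. The shares of all genes were 24.9% and 21.7%. TUFM, the elongation factor that brings charged tRNA to the ribosome, had 8.47, 8.53 and 8.48 in IDTC, against 9.04, 8.97 and 9.01 in Parent (-0.51 ± 0.05). SLIRP, the mRNA-binding partner of LRPPRC, fell by 1.07 ± 0.06. The release factor MTRF1L (-0.86 ± 0.09) and the recycling factor MRRF (-0.81 ± 0.07) fell too. MTRF1 (0.30) and MTRFR (0.19), of the release factor family, were the 2 that rose.

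Of 20 genes for mitochondrial DNA upkeep, transcription and RNA processing 15 fell and 3 rose, with a median of -0.78. POLRMT, the mitochondrial RNA polymerase, had 7.77, 7.85 and 7.81 in IDTC, against 8.52, 8.51 and 8.66 in Parent (-0.75 ± 0.06). TFAM, which packs and transcribes mitochondrial DNA, had 7.88, 7.70 and 7.40 in IDTC, against 8.86, 8.65 and 8.67 in Parent (-1.07 ± 0.13). The groups were apart for both, and IDTC 3 was the lowest array for TFAM. FASTKD1 (log2 fold change -1.54 ± 0.12), its relative TBRG4 (-1.42 ± 0.06) and TRMT10C (-1.42 ± 0.10), a subunit of mitochondrial RNase P, also fell. PRORP, the nuclease subunit of the same enzyme, rose by 0.69 ± 0.06. Transcripts of mitochondrial DNA itself were not analysed here.

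**Figure D4:**
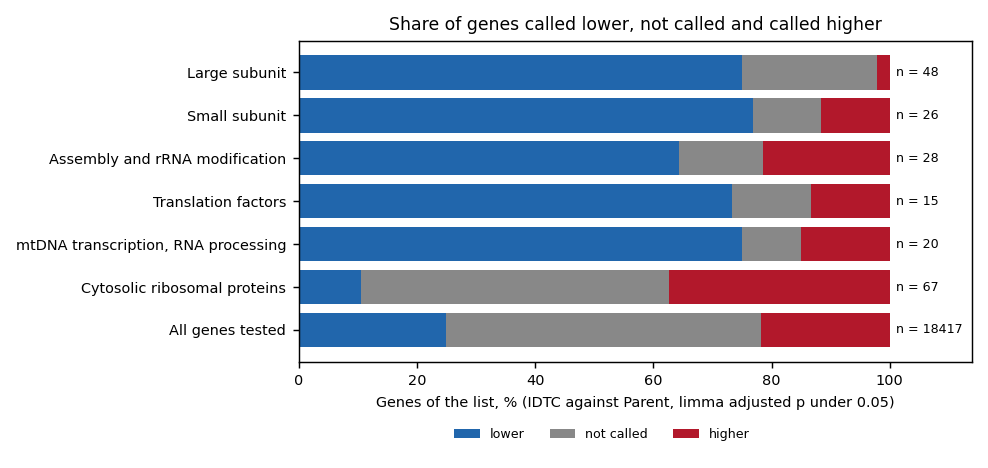
The percentage of genes called lower, not called and called higher in the subunits of the mitochondrial ribosome, in the lists of genes that build and serve it, in the cytosolic ribosomal proteins and in all genes tested, with the number of genes at the right. The genes called lower are 36 of 48 in the large and 20 of 26 in the small subunit. Beside them stand 10.4% of the genes with cytosolic ribosomal protein symbols, paralogues included, and 24.9% of all genes.

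Transcription factors linked to nuclear genes of mitochondria were split, with 5 of 13 lower, 4 higher and 4 not called. These are 38.5% lower and 30.8% higher, beside 24.9% and 21.7% of all genes. With only 13 genes the shares were not tested. MYC, which drives growth and ribosome genes, had 9.38, 9.45 and 9.37 in IDTC, against 10.74, 10.69 and 10.75 in Parent, and fell by 1.33 ± 0.05 (limma adjusted p = 1.58e-06). PPRC1, a coactivator related to PGC-1α, had a log2 fold change of -1.003 ± 0.052, and the nuclear receptor ESRRA one of -0.80 ± 0.13. PPARGC1A, which encodes PGC-1α, a coactivator of mitochondrial genes, had 8.32, 8.29 and 8.28 in IDTC, against 7.95, 7.79 and 7.80 in Parent, and rose by 0.45 ± 0.06. So members of this list that are known as activators of mitochondrial genes moved both ways. NRF1 (0.30), TFEB (0.38) and SP1 (0.61) also rose, and YY1, GABPA, GABPB1 and MAX were not called. Whether any of them bears on the ribosomal protein genes was not tested.

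The promoters were searched for 4 short motifs on both strands, over 250 bases before and 50 after the start. A window was given for 66 of the 74 genes. The ETS motif CCGGAAG, the kind bound by GABPA, was present in 28 (42.4%), beside 10.7% of all 27305 windows and 14.6% of those of the genes tested. The YY1 motif AANATGGC was present in 23 (34.8%), beside 6.8% of all windows and 8.2% of those of the genes tested. The NRF1 motif GCGCANGCG was present in 13 (19.7%), beside 8.0% of all windows and 11.3% of those of the genes tested. The E-box CACGTG, a motif of MYC and other factors, was present in 6 (9.1%), a share like the 7.4% of all windows and the 8.9% of those of the genes tested. A match is only a run of letters.

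Genes with and without a motif had similar values. Of the 28 with the ETS motif 21 fell, with a median log2 fold change of -0.42, and of the 38 without it 29 fell, with a median of -0.49. For YY1 it was 17 of 23 (median -0.44) beside 33 of 43 (-0.48), for NRF1 9 of 13 (-0.44) beside 41 of 53 (-0.48), and for the E-box 4 of 6 (-0.42) beside 46 of 60 (-0.48). In the windows printed above, MRPS12 holds a YY1 match on the opposite strand at bases -212 to -205 from the start and MRPS23 an ETS match on the opposite strand at -14 to -8. MRPL44 holds an NRF1 match at -194 to -186. MRPL39 and MRPL50 hold none in the 250 bases shown.

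Several of the genes start back to back with a neighbour. Taking genes on opposite strands whose starts lie within 1000 bases and point away from each other, 17 such pairs held a mitoribosomal gene. In 15 pairs that gene fell, and its neighbour fell in 10, rose in 4 and was not called in 1. Over all 890 such pairs, 626 genes fell, and the neighbour of 260 of them (41.5%) fell too.

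MRPS12 shares its start region with SARS2, the mitochondrial seryl-tRNA synthetase, 181 bases away, which fell by 0.74 ± 0.06. MRPL18 shares one with TCP1, a subunit of the cytosolic chaperonin, 210 bases away, which fell by 0.99. MRPL57 and SKA3, a kinetochore gene, both fell, with a log2 fold change of -1.13 for SKA3. MRPL50 went the other way from its neighbour: ZNF189, a zinc finger gene 233 bases away, rose by 0.73 ± 0.09. The neighbours of MRPS7 (GGA3, 0.33), MRPL37 (CYB5RL, 0.34) and MRPS18C (HELQ, 0.27) rose as well.

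**Figure D5:**
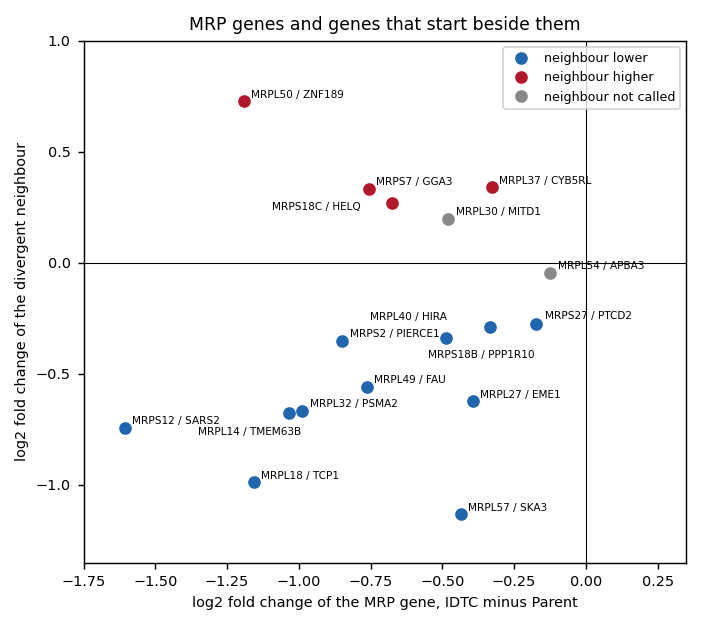
The log2 fold change of each mitoribosomal gene (horizontal axis) against that of the neighbour that starts back to back with it (vertical axis), for 17 pairs, with colour giving the call of the neighbour. Most points lie in the lower left, and MRPL50 with ZNF189 is the highest point of the upper left.

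Outside the ribosome, the genes whose levels followed the mean of the 74 most closely over the 6 arrays were SEC23B, a coat protein of vesicles leaving the endoplasmic reticulum, ELOA, a transcription elongation factor, CLPTM1, RRP15, a nucleolar protein, and NF2, the merlin tumour suppressor. Their Pearson correlations were 0.99978, 0.99969, 0.9996, 0.99953 and 0.99952 (n = 6). With only 6 arrays in 2 separated groups such values are common, and 3947 of 18339 genes (21.5%) had one over 0.9.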

How the data were processed

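Expression was measured on Affymetrix whole-transcript arrays in 3 IDTC and 3 Parent samples of WM164, grouped by sample title. The authors deposited 1 table of log2 expression for 33297 probe sets. Named in the submitters' processing notes are Affymetrix Expression Console, RMA and Partek 6.6, with no role for each, and a genome build was not given in the sources used here. It has no detection calls, so dim genes cannot be told from background, and the number of arrays limits precision. Every per-sample column was used (0 left out).

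Of 21214 probe sets in the platform annotation, 19460 had 1 symbol and were named, 1754 had several and 12083 others were not listed. Of those named, 19429 matched a GRCh38.p14 gene record, and no symbol changed. The brightest probe set stood for each gene. The 18417 genes were fitted with limma 3.58.1 in R 4.3.3 (lmFit, eBayes, 2-sided, no covariates, no filter), and the procedure was tested on simulated data. Probe sets with several symbols were fitted apart, with all probe sets.

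The genes and lists were chosen with earlier results of these data known. Genes named with values were, in each subunit, the 7 lowest and up to 4 highest called and the 3 brightest not called, a fixed set of related genes (MRPL10 to MRPL12, MRPS12, MRPS18A, MRPS30, DAP3, POLRMT, TFAM, TUFM, MYC, PPARGC1A, PPRC1), and up to 3 called per list. Others were chosen after their values were seen. MRPS36 was not analysed here. Alternatives were re-centring, quantile normalization, no dim genes, the mean of probe sets, an intensity trend, a replicate block, leaving out each array and subunits as in structures. The labels do not say whether same-numbered samples are pairs, and the main fit did not take them as pairs. Deviations from the group mean correlated at 0.315, -0.192 and 0.26 for same-numbered samples. For samples of different number the values ran from -0.473 to 0.372. With 3 arrays per group the deviations are tied to each other, so these values cannot settle whether there is pairing.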

Additional observations from a re-analysis of the deposited data

How the results depend on the processing

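The count of genes called lower stayed between 51 and 57 of those measured under every alternative run. Called higher were 7 genes in place of 4 when arrays were re-centred and 7 with quantile normalization. The median log2 fold change of all 74 was then -0.40 re-centred and -0.381 quantile normalized, that of the large subunit -0.382 and -0.373, and that of the small subunit -0.381 under quantile normalization. Re-centring adds one constant per array and so moves every log2 fold change up alike, while for quantile normalization the cause was not tested. Both also left 6 of the 7 listed central protuberance genes called. Leaving out single arrays gave large-subunit medians of -0.508 to -0.425. Moving MRPS18A and MRPS30 to the large subunit took the change of the subunit offset to -0.007. Over all genes, 4592 were lower and 3996 higher, against 4017 and 4846 after re-centring, and the cytosolic ribosomal proteins held 6 lower and 34 higher. With a replicate block 56 genes were called lower, 55 of them shared with the fit without it, with MRPL23 lost and MRPL22 gained. Whether same-numbered samples are pairs is not known from the labels, so that fit says nothing of a paired design. Of 57 named genes 48 kept their call under every one of the 12 settings that tested them, and of these MRPS31P5, TYRP1, PDGFRA, LYZ and FCER1G were not tested without the dimmest 40% of genes. MRPL27, MRPS21, FAP and MS4A1 lost theirs under some, MRPL45, MRPS14, MRPL53, MRPL11 and MRPL34 gained one under some, and none of the 57 changed direction. Other genes named above are outside that tally. Among members outside it, MRPL23, MRPL36, MRPL52 and MRPS18C lost a lower call under some settings and MRPL22 gained one.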
